A study of Mus musculus with 9 samples.

Results

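The tumour necrosis factor (TNF) superfamily is a set of ligands and the cell surface receptors they bind. Its members were picked here by gene symbol, as the genes named Tnfsf or Tnfrsf with a number together with Tnf, Lta, Ltb, Ltbr, Fas, Fasl, Cd40, Cd27 and Cd70. The family was chosen with earlier results of these data known. The array carried 39 such genes among 20972 named genes, on 49 of its 55681 probes. A further 2 symbols of the family, Tnfsf13 and Tnfsf13os, had no probe. Of the 39 genes, 15 encode ligands, 5 encode receptors with a death domain, 15 encode receptors that bind TRAF adaptors without a death domain, and 4 encode decoy or other receptors.

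RNA was measured in the liver of 9 male C57B/6 J mice aged 20 weeks, with 1 single-colour array per mouse and 3 mice per group. STAM mice model fatty liver disease with diabetes that goes on to liver cancer, and had received a subcutaneous dose of streptozotocin, which damages insulin-secreting cells, as newborns and a high-fat diet from weaning. STAM-NON mice had no further treatment, STAM-INS mice were injected subcutaneously with the long-acting insulin glargine until that age, and Normal mice had neither streptozotocin nor the high-fat diet. The comparison of STAM-NON with Normal asks what the model changes in liver, and the comparison of STAM-INS with STAM-NON asks what insulin changes in the model. STAM livers can hold tumours at this age, and whether the pieces used contained any is not given in the sources used here.

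Most ligands of the family are made as trimers in the membrane of immune cells and can be shed as soluble proteins. Receptors with a death domain recruit adaptors that lead to caspases or to necroptosis, while the others recruit TRAF proteins and activate NF-κB. Decoy receptors bind ligand without passing on a death signal. In liver, hepatocytes carry receptors for TNF, Fas ligand and TRAIL, whereas most ligands come from resident and infiltrating immune cells.

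Values are given as centred log2 signal, in which the array's own 75th percentile is subtracted from each log2 signal, so that 0 is the level of the 75th percentile spot. They are not compared between probes. A probe counted as detected on an array where the scanner software flagged at least 0.5 of its spots as well above background, and was tested where it was detected on all 3 arrays of at least 1 group. Differences are log2 differences of group means with their standard error (SE), and adjusted p-values come from limma over 26278 tested probes, with a threshold of 0.05.

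The arrays themselves differed. STAM-NON replicate 1, STAM-NON replicate 3 and STAM-INS replicate 1 had 59.3% to 65.0% of their spots well above background, against 46.2% to 51.1% on the other 6 arrays. Both STAM groups were hybridised on 1 slide and the Normal group on another, so that slide and group cannot be told apart in either comparison with Normal. Some marker genes of other cells also moved. Summed levels are the log2 of the added linear signals of a list, so that its brightest probe weighs most. The summed level of 8 macrophage markers was 6.57 to 7.36 in STAM-NON, 6.43 to 7.48 in STAM-INS and 5.86 to 6.38 in Normal, and 4 of the 8 were higher in STAM-NON than in Normal (Trem2, Gpnmb, Itgax and Clec4f). Summed NK cell markers were 0.42 to 1.32, 0.43 to 1.15 and -0.34 to -0.05 in the same order, with 2 of 3 tested genes called higher in STAM-NON (Gzma and Klrd1) and 1 in STAM-INS (Gzma), while Prf1 differed from Normal by -0.36 (adjusted p = 0.0506) and -0.25 (adjusted p = 0.136). Summed T cell markers overlapped between groups, at 4.34 to 5.37, 4.69 to 5.36 and 5.17 to 5.24, and 0 of 5 tested passed the limma threshold in either STAM group against Normal (1 and 0 had an unadjusted p under 0.05 in STAM-NON and STAM-INS). Cd4, the brightest of these markers, largely set the sum. In STAM-NON, Cd3d, Cd3g and Lck differed from Normal by 0.91, 0.77 and 0.41, and Cd3e and Cd4 by -0.24 and -0.46. Summed monocyte and neutrophil markers were 3.48 to 7.46, 3.96 to 4.87 and 2.99 to 3.13, with 0 of 4 called (3 and 2 had an unadjusted p under 0.05). Summed biliary markers were 0.11 to 0.93, 0.43 to 0.53 and -1.12 to 0.10, with Krt7 and Sox9 called in STAM-NON and Sox9 in STAM-INS. Summed stellate cell markers were 2.75 to 3.35, 1.93 to 3.12 and 1.67 to 2.62, with 0 of 5 called (2 and 0 had an unadjusted p under 0.05). Of 5 endothelial markers, whose sums overlapped, Lyve1 alone was called, in STAM-NON (8.07-fold higher). Kdr lay below Normal without overlap, with differences of -0.28 (limma adjusted p = 0.127) in STAM-NON and -0.36 (0.0713) in STAM-INS. Pecam1, Stab2 and Cdh5 overlapped with Normal in both groups. Summed hepatocyte markers were lower, at 11.26 to 11.67, 11.44 to 11.69 and 11.87 to 11.95, with 1 of 6 called lower (Cps1). Summed B cell and plasma cell markers overlapped, at -0.49 to 1.80, 0.11 to 0.33 and 0.22 to 0.69. Of these, 2 were tested and 0 called, with Cd79b at -0.24 and Jchain at -0.19 in STAM-NON against Normal. Among adipocyte and pancreas markers, 1 and 2 were tested and 0 called (1 pancreas marker had an unadjusted p under 0.05 in STAM-NON). The part of these markers in the results below was not tested, and in bulk liver a change in the number of cells of a type cannot be told apart from a change in RNA per cell.

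**Figure D1:**
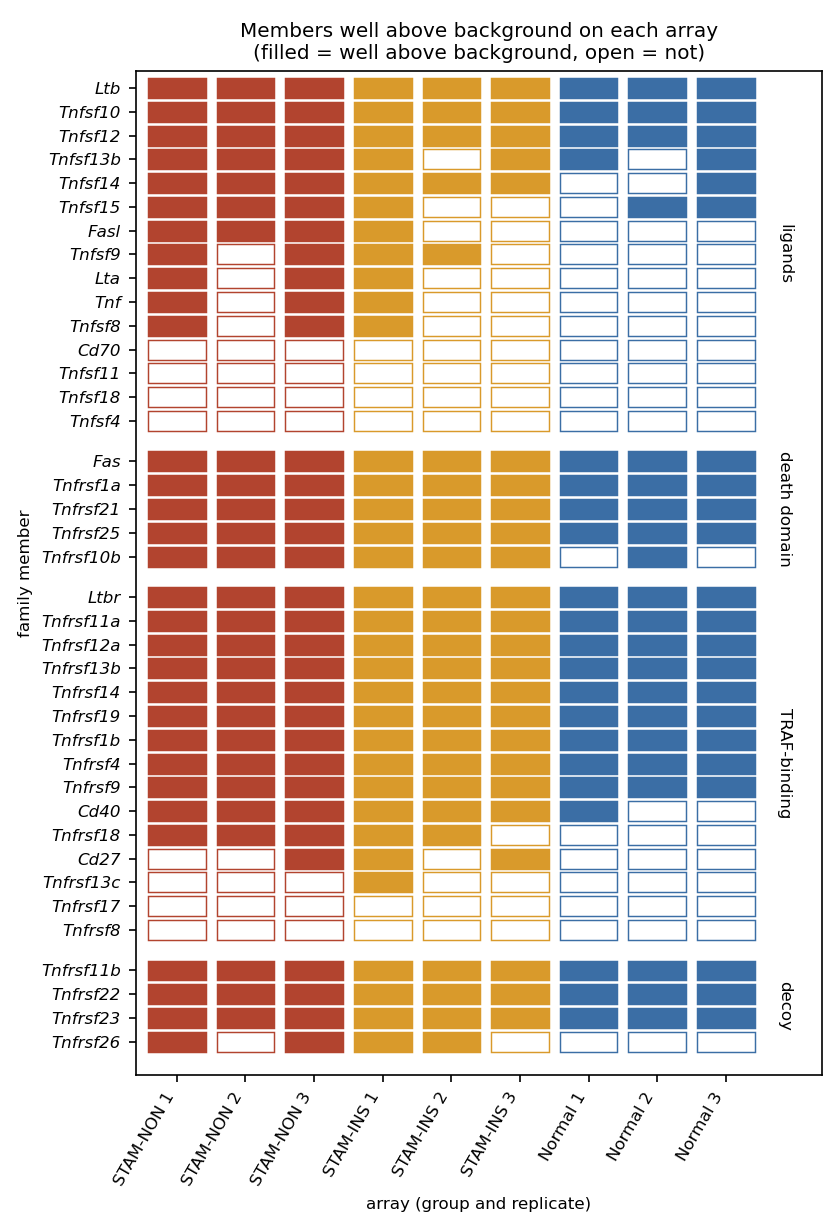
Detection of the 39 family members on each of the 9 arrays (columns, by group and replicate), grouped by role (rows). Filled cells mark a member well above background and open cells one that was not; 24 to 33 members were detected on STAM arrays and 21 to 22 on Normal arrays.

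Many family members were dim in liver. STAM-NON arrays detected 31, 26 and 32 of the 39 members, STAM-INS arrays 33, 25 and 24, and Normal arrays 21, 21 and 22. Each STAM array thus detected more members than any Normal array. The share of all 20972 named genes detected was 63.1% to 74.3% in STAM-NON, 63.7% to 75.4% in STAM-INS and 61.3% to 64.7% in Normal, so that STAM-NON replicate 1, STAM-NON replicate 3 and STAM-INS replicate 1 were high for all genes as well. At 1 fixed centred log2 signal of -3.68, applied to all arrays, the counts were 26, 26 and 30 in STAM-NON, 28, 25 and 25 in STAM-INS, and 22, 22 and 21 in Normal. The share of all named genes above that signal was not counted. These counts therefore cannot tell a difference of the family from one of all genes.

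Receptors with a death domain were detected almost throughout, 5 of 5 on every STAM array and 4 or 5 on the Normal arrays, whereas 5 to 11 of the 15 ligands were detected on STAM arrays and 4 to 6 on Normal arrays. The genes on no array were the ligands Cd70, Tnfsf11 (RANKL), Tnfsf18 (GITR ligand) and Tnfsf4 (OX40 ligand) and the receptors Tnfrsf8 (CD30) and Tnfrsf17 (BCMA). A further 7 members were detected on some arrays and not tested. Of these, Tnf, Lta and Tnfsf8 (CD30 ligand) were detected on 2 STAM-NON arrays, 1 STAM-INS array and 0 Normal arrays, each time on the 3 arrays with the most detected spots. Tnfsf9 (4-1BB ligand) and Tnfrsf26 were detected on 2 arrays of each STAM group and 0 Normal arrays. On their main probes, Cd27 was detected on 1 STAM-NON array and 2 STAM-INS arrays and Tnfrsf13c, the BAFF receptor, on 1 STAM-INS array, and the second probe of each was detected on 1 STAM-NON array.

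The remaining 26 members were tested. Among these, 19 were detected on all 3 Normal arrays, and 7 (Cd40, Fasl, Tnfrsf10b, Tnfrsf18, Tnfsf13b, Tnfsf14 and Tnfsf15) entered the test only through STAM arrays. Between STAM-NON and Normal, 6 of the 26 were called, beside 16.1% of all tested probes. Higher in STAM-NON were Tnfrsf10b, Tnfrsf23, Tnfrsf18, Cd40 and Tnfrsf11b, beside 6.3% of all probes called higher, and 3 of these 5 entered through STAM arrays. Tnfrsf9 was lower, beside 9.76% of all probes called lower. The median difference was 0.27 over the tested members and -0.13 over all tested probes. The 7 members that entered only through STAM arrays all lay above 0, at 0.012 to 2.60, and count in that median. It therefore cannot tell a shift of the family from the effect of that filter. Between STAM-INS and Normal, 5 members were called, beside 13.9% of all probes. The 4 higher were Tnfrsf10b, Tnfrsf23, Cd40 and Tnfrsf18, beside 5.16% of probes, and Tnfrsf9 was again lower, beside 8.72%. Each of the called genes encodes a receptor, and 0 of the 7 tested ligands passed the limma threshold in any comparison (2 had an unadjusted p under 0.05 between STAM-NON and Normal, 1 between STAM-INS and Normal).

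These comparisons share arrays, since each group enters 2 of the 3 comparisons. The numbers of calls also depended on the arrays. Without the 3 arrays with the most detected spots, a setting chosen after seeing the data that leaves 1 STAM-NON array and assumes it varies like the others, 1 member was called in STAM-NON against Normal (Tnfrsf10b) and 3 in STAM-INS against Normal. With the slide row as a block or the methods' t-test 0 of the 6 calls in STAM-NON passed (5 and 7 members had an unadjusted p under 0.05), and with no filter on dim probes Tnfrsf10b alone did. Over all tested probes the t-test called 30 after adjustment in STAM-NON against Normal, in place of 4220 by limma. The row effect was estimated through STAM-INS alone (replicate 1 in row 1, replicates 2 and 3 in row 2). STAM-NON arrays all lay in row 1 and Normal arrays in row 2. With E1A spike-in centring, 7 members were higher and 0 lower in STAM-NON against Normal, beside 2733 probes higher and 453 lower in place of 1655 and 2565.

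The promoters of 3 called members, Tnfrsf9, Tnfrsf18 and Tnfrsf23, are shown because they were the called members with an entry, and NF-κB is the factor that most receptors of the family activate. The RefSeq promoter table (GRCm38.p6) had an entry for 30 of the 39 members. The windows below are the 250 bases before the start site, 5′ to 3′ on the gene's strand, and capitals mark a match to the NF-κB consensus decamer on either strand. Tnfrsf9 has 2 start sites in the table, at chr4:150919905-150920154 (first, + strand) and chr4:150927749-150927998 (second, + strand), Tnfrsf18 lies at chr4:156026072-156026321 (+ strand) and Tnfrsf23 at chr7:143685876-143686125 (- strand).
Tnfrsf9, first start: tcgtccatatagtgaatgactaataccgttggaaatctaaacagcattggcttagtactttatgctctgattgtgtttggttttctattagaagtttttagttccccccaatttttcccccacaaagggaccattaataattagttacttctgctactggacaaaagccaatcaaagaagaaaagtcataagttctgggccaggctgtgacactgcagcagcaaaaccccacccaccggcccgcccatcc
Tnfrsf9, second start: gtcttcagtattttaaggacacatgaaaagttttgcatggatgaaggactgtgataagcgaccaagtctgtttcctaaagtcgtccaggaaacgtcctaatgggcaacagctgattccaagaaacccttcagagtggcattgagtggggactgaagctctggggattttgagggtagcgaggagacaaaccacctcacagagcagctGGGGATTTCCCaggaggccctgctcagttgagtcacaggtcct
Tnfrsf18: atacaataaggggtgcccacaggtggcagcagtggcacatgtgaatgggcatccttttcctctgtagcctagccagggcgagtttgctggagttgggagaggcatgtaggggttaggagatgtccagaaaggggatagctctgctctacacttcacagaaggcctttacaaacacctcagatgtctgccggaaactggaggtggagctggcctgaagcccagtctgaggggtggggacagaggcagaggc
Tnfrsf23: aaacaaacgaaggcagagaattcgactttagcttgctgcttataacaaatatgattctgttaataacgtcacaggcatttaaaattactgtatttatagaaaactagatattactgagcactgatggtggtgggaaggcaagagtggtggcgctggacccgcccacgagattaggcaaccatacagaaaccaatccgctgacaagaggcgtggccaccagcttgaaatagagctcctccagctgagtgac

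The second start of Tnfrsf9 holds 2 overlapping decamer matches, beginning 43 and 42 bases before it, and a match to the AP-1 motif TGANTCA 15 bases before it. The first start and the windows of Tnfrsf18 and Tnfrsf23 hold no decamer. Of the 30 members with an entry, 4 hold the decamer (Ltb, Tnfrsf25, Tnfrsf8 and Tnfrsf9), beside 8.23% of 27025 genes and 7.25% of 32851 promoters, and 5 hold TGANTCA, beside 7.82% of genes. The p53 decamer was also searched and was found in 2 members, beside 8.2% of genes. These are matches of letters within 250 bases and say nothing of binding.

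**Figure D2:**
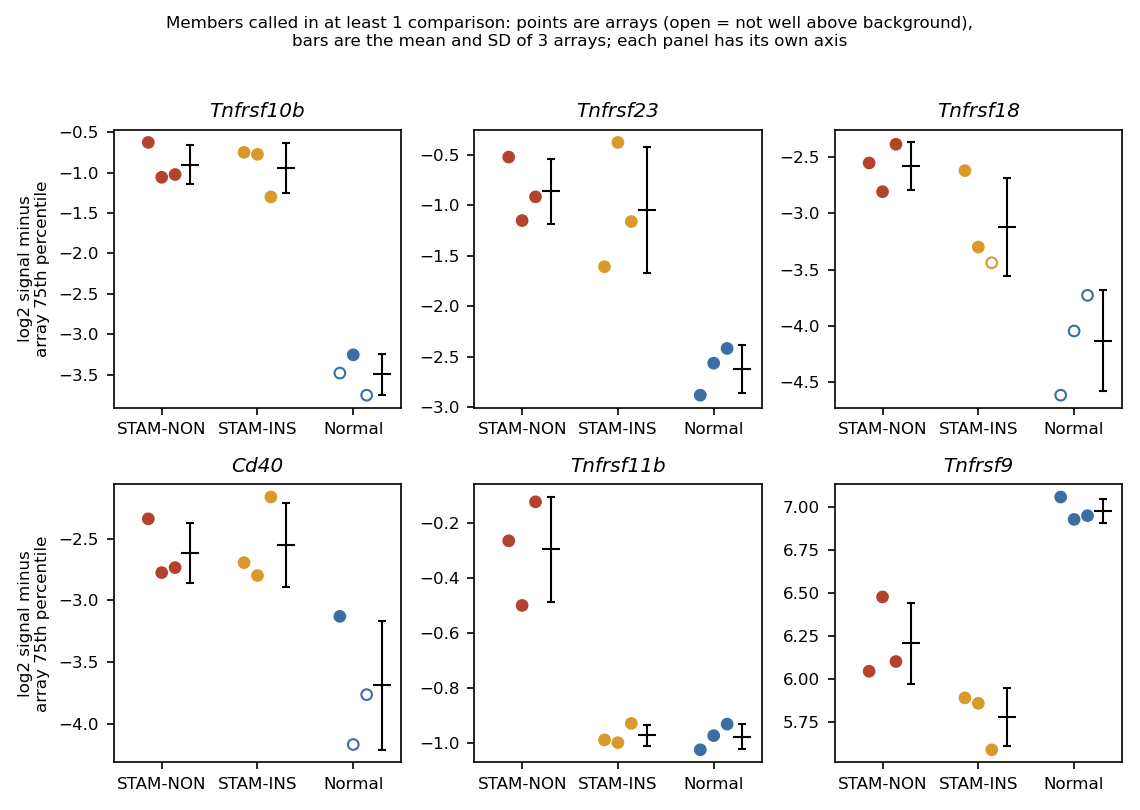
Centred log2 signal (y axis, own scale in each panel) of the 6 called members on every array of the 3 groups. Points are arrays, open where the probe was not well above background, and bars are the mean and SD of 3 arrays; Tnfrsf10b lay between -0.63 and -1.30 on the STAM arrays and between -3.26 and -3.75 on the Normal arrays.

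Tnfrsf10b, the death receptor for TRAIL (DR5), showed the largest difference among the tested members. It read -0.63, -1.06 and -1.02 in STAM-NON, -0.75, -0.77 and -1.30 in STAM-INS, and -3.48, -3.26 and -3.75 in Normal. The 6 STAM arrays lay above the 3 Normal arrays, and the STAM groups overlapped. The difference was 2.60 (SE 0.21, 6.04-fold, adjusted p = 0.00153) in STAM-NON and 2.56 (SE 0.21, 5.88-fold, adjusted p = 0.00173) in STAM-INS, both against Normal, where it was detected on 1 of 3 arrays, so that these folds include 2 Normal arrays near background. STAM-INS and STAM-NON differed by -0.04 (SE 0.21, adjusted p = 0.971). With normexp background correction the differences were 1.05 and 1.06, both still called. The call in STAM-NON did not pass with the methods' t-test (adjusted p = 0.0531) or with the row of the array on its slide as a block (adjusted p = 0.11).

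No other receptor with a death domain was called. Fas, which triggers apoptosis on binding Fas ligand, read 1.75, 2.51 and 2.28 in STAM-NON, 2.21, 2.76 and 2.49 in STAM-INS, and 2.25, 2.44 and 2.14 in Normal. All groups overlapped, with differences from Normal of -0.10 (SE 0.22, adjusted p = 0.771) in STAM-NON and 0.21 (SE 0.22, adjusted p = 0.535) in STAM-INS. Tnfrsf1a, the main TNF receptor of parenchymal cells, read 4.34, 4.41 and 4.63, then 4.39, 5.10 and 4.82, then 4.45, 4.56 and 4.24 in the same order. Its difference between STAM-INS and Normal was 0.35 (SE 0.19, adjusted p = 0.232), and its second probe gave 0.44 (SE 0.21, adjusted p = 0.189). Tnfrsf21 (DR6) and Tnfrsf25 (DR3) differed from Normal by 0.18 to 0.61, and neither passed the threshold.

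Among the decoy receptors, Tnfrsf23 and Tnfrsf11b were called and Tnfrsf22 was not. Tnfrsf23, a mouse receptor that binds TRAIL without a death domain, read -0.52, -1.15 and -0.92 in STAM-NON, -1.61, -0.38 and -1.16 in STAM-INS, and -2.88, -2.57 and -2.42 in Normal. The STAM arrays were all above the Normal arrays. The difference was 1.76 (SE 0.31, 3.39-fold, adjusted p = 0.014) in STAM-NON and 1.57 (SE 0.31, 2.98-fold, adjusted p = 0.0166) in STAM-INS. Without Normal replicate 1 or Normal replicate 2 the adjusted p in STAM-INS was 0.0579 and 0.0502. With normexp background correction the differences were 0.80 and 0.70, both still called, and without the 3 arrays with the most detected spots the call in STAM-NON was lost (1.47, adjusted p = 0.143). A second probe for Tnfrsf23 was detected on 0 arrays. Its neighbour on chromosome 7, Tnfrsf22, encodes a similar TRAIL decoy and read -2.78, -1.71 and -2.07, then -2.25, -1.32 and -1.66, then -1.75, -1.66 and -1.81. Its groups overlapped, with a difference from Normal of -0.45 (SE 0.30, adjusted p = 0.312) in STAM-NON and -0.0023 (SE 0.30, adjusted p = 0.997) in STAM-INS. A second probe for Tnfrsf22 was detected on 1 array of each STAM group and 0 Normal arrays, so it was not tested. Near background, that probe went the other way, by 0.54 in STAM-NON and 0.72 in STAM-INS, with overlapping groups. Tnfrsf26, the remaining gene of this cluster, read -3.27, -3.88 and -3.06, then -3.52, -3.65 and -4.19, then -4.78, -4.10 and -4.12. Its STAM-NON arrays lay above the Normal arrays, while STAM-INS and Normal overlapped. It was well above background on 2 arrays of each STAM group and on 0 Normal arrays, so it was not tested and no fold is given. Since these genes are neighbouring paralogs and the probe letters were not used here, cross-hybridisation among them was not tested.

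Tnfrsf11b encodes osteoprotegerin, a secreted decoy that binds RANKL and TRAIL. It read -0.26, -0.50 and -0.12 in STAM-NON, -0.988, -0.998 and -0.928 in STAM-INS, and -1.02, -0.97 and -0.93 in Normal. All 3 STAM-NON arrays lay above all other arrays, while STAM-INS and Normal overlapped. The difference between STAM-NON and Normal was 0.68 (SE 0.12, 1.6-fold, adjusted p = 0.014), and between STAM-INS and Normal it was 0.0042 (SE 0.12, adjusted p = 0.985). Between STAM-INS and STAM-NON the difference was -0.68 (SE 0.12, unadjusted p = 0.000381), which did not pass adjustment over all probes (limma adjusted p = 0.198). Without the 3 arrays with the most detected spots the difference between STAM-NON and Normal was 0.48 (adjusted p = 0.188), with normexp background correction it was 0.40 and still called, and median centring (adjusted p = 0.0666) and the slide row as a block (adjusted p = 0.23) also ended that call.

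Receptors that bind TRAF adaptors went in both directions. Of 15 such genes 11 were tested, 2 were higher and 1 was lower in STAM-NON than in Normal, and the median difference over the 11 was -0.04. Over all tested probes 6.3% were called higher and 9.76% lower. Both higher members, Tnfrsf18 and Cd40, entered the test only through STAM arrays. Tnfrsf18, which encodes GITR, a receptor of regulatory and activated T cells, read -2.56, -2.81 and -2.39 in STAM-NON, -2.62, -3.30 and -3.44 in STAM-INS, and -4.61, -4.04 and -3.73 in Normal. It was detected on 3, 2 and 0 arrays of these groups, and every STAM array was above every Normal array. Against Normal, where it stayed near background, the tested difference was 1.54 (SE 0.28, adjusted p = 0.0149) in STAM-NON and 1.01 (SE 0.28, adjusted p = 0.0468) in STAM-INS. As lower bounds, which were not tested themselves, its level was at least 2.29-fold and 1.58-fold higher. The call in STAM-INS did not hold when any 1 of the 9 arrays was left out, with adjusted p from 0.0501 to 0.124. Normexp background correction gave 0.31 (adjusted p = 0.0369) in STAM-NON and 0.18 (adjusted p = 0.184) in STAM-INS, and without the 3 arrays with the most detected spots the adjusted p in STAM-NON was 0.167. The slide row as a block, whose effect was estimated through STAM-INS alone, gave 0.80 in STAM-NON (adjusted p = 0.404). The difference between STAM-INS and STAM-NON was -0.54 (SE 0.28, adjusted p = 0.623).

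Cd40, the receptor by which B cells and macrophages receive help from T cells, read -2.34, -2.78 and -2.73 in STAM-NON, -2.69, -2.80 and -2.16 in STAM-INS, and -3.13, -4.16 and -3.76 in Normal. The STAM arrays were again all higher, and 1 of 3 Normal arrays detected the gene. The difference was 1.07 (SE 0.28, 2.1-fold, adjusted p = 0.0382) in STAM-NON and 1.13 (SE 0.28, 2.19-fold, adjusted p = 0.0341) in STAM-INS, and these folds too include 2 Normal arrays near background. These calls depended on single arrays. The call in STAM-NON was lost without STAM-NON replicate 1 (adjusted p = 0.109), STAM-NON replicate 3 (0.0763), STAM-INS replicate 1 (0.0538), Normal replicate 2 (0.102) or Normal replicate 3 (0.106). The call in STAM-INS was lost without any STAM-INS array or without Normal replicate 2 or 3, with adjusted p from 0.0652 to 0.102. With normexp background correction the differences were 0.23 and 0.26, neither of them called. Both calls were also lost with median centring (adjusted p = 0.0755 and 0.07) and with quantile normalization (0.0619 and 0.0527).

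Tnfrsf9, which encodes 4-1BB (CD137), a costimulatory receptor of activated T cells and NK cells, was the 1 member called lower, and was so in both STAM groups. Its main probe read 6.05, 6.48 and 6.10 in STAM-NON, 5.89, 5.86 and 5.59 in STAM-INS, and 7.06, 6.93 and 6.95 in Normal. No pair of groups overlapped, with STAM-INS lowest, STAM-NON between and Normal highest. The difference was -0.77 (SE 0.15, adjusted p = 0.017) in STAM-NON and -1.20 (SE 0.15, adjusted p = 0.00352) in STAM-INS, a level 2.29-fold lower than in Normal. Between STAM-INS and STAM-NON it was -0.43 (SE 0.15, unadjusted p = 0.0186, limma adjusted p = 0.494). The call in STAM-INS held in all 9 settings that left out 1 array and all 13 others, while that in STAM-NON was lost without STAM-NON replicate 1 (adjusted p = 0.0528), Normal replicate 1 (0.0574), Normal replicate 2 (0.0519) or Normal replicate 3 (0.0574), without the 3 arrays with the most detected spots (-0.50, adjusted p = 0.233), and with E1A spike-in centring (-0.46, adjusted p = 0.0744). The 2 probes of Tnfrsf9 disagreed, since the main probe was well above background on 9 of 9 arrays and the other, which carries the same accession, on 0. Which transcript the bright probe measured was not tested.

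The other tested TRAF-binding receptors were not called. Tnfrsf12a (Fn14), the receptor for TWEAK that rises in injured tissue, differed by 0.90 between STAM-NON and Normal (SE 0.29, adjusted p = 0.0631), and the groups overlapped. Tnfrsf11a (RANK) read 0.57, 0.96 and 0.78 in STAM-NON, 0.92, 0.85 and 0.92 in STAM-INS, and 1.13, 0.95 and 1.13 in Normal, a difference of -0.30 in STAM-NON (SE 0.13, adjusted p = 0.13). Tnfrsf13b (TACI), a receptor for BAFF and APRIL, read -2.67, -2.84 and -2.66, then -2.47, -3.17 and -2.60, then -2.24, -2.54 and -2.49. It was -0.30 in STAM-NON (SE 0.19, adjusted p = 0.279). Tnfrsf14 (HVEM), a receptor for LIGHT, read -2.06, -2.45 and -2.18, then -2.08, -2.20 and -2.21, then -2.15, -1.88 and -1.60. Its difference in STAM-NON was -0.35 (SE 0.17, adjusted p = 0.16), against 0.51 (SE 0.45, adjusted p = 0.436) for its second probe, so the probes differed in sign and neither was called. Tnfrsf1b, the TNF receptor of immune and endothelial cells, read -0.78, -1.34 and -0.67, then -1.12, -0.79 and -0.93, then -1.25, -0.52 and -0.90, and its differences from Normal were -0.04 and -0.06 (SE 0.23 for both). Ltbr, the receptor for lymphotoxin β and LIGHT, read 4.14, 4.67 and 4.31, then 4.30, 4.53 and 4.78, then 4.78, 4.52 and 4.53, and differed from Normal by -0.24 (SE 0.18, adjusted p = 0.36) in STAM-NON. Tnfrsf4 and Tnfrsf19 differed from Normal by 0.0012 to 0.34 and were not called.

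Ligands were at or below the detection limit more often than their receptors. Tnf itself, the founding cytokine of the family, read -4.48, -5.32 and -4.22 in STAM-NON, -3.80, -4.63 and -4.17 in STAM-INS, and -5.70, -5.80 and -5.67 in Normal. The STAM arrays were above the Normal arrays, but Tnf was well above background on only 3 of the 6 STAM arrays and on 0 Normal arrays, so it was not tested and no fold is given. Fasl, which encodes Fas ligand of cytotoxic T cells and NK cells, read -3.93, -3.48 and -3.59 in STAM-NON, -3.33, -4.33 and -5.11 in STAM-INS, and -5.44, -4.94 and -4.72 in Normal. The gene was detected on all 3 STAM-NON arrays, on 1 STAM-INS array and on 0 Normal arrays. The tested difference between STAM-NON and Normal was 1.37 (SE 0.41) and just missed the threshold (adjusted p = 0.0532), and it passed without STAM-INS replicate 1 (adjusted p = 0.0259) or STAM-INS replicate 3 (0.0332). As a lower bound, which was not tested itself, STAM-NON was at least 1.18-fold above Normal. With the slide row as a block, whose effect was estimated through STAM-INS alone, the difference was -0.024 (adjusted p = 0.986). Of the NK cell markers given above, Gzma and Klrd1 were higher in STAM-NON and Prf1 was not, and their part in the value of Fasl was not tested.

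Ltb, lymphotoxin β of lymphocytes, read 0.08, -0.16 and 1.09 in STAM-NON, 0.37, -0.59 and -0.12 in STAM-INS, and -1.15, -0.59 and -0.38 in Normal. STAM-NON lay above Normal without overlap, by 1.04 (SE 0.37, adjusted p = 0.0871). Tnfsf14 (LIGHT) read -3.37, -3.46 and -2.45, then -2.85, -3.06 and -2.87, then -4.48, -3.66 and -3.24, and differed from Normal by 0.70 (SE 0.35, adjusted p = 0.186) in STAM-NON and 0.87 (SE 0.35, adjusted p = 0.128) in STAM-INS. Tnfsf13b, the B cell survival factor BAFF, read -2.89, -3.59 and -2.87, then -3.06, -4.92 and -3.47, then -3.46, -3.93 and -3.70. Its spread within STAM-INS was wide, and the difference between STAM-INS and STAM-NON was -0.70 (SE 0.44, adjusted p = 0.688). Tnfsf10 (TRAIL), Tnfsf12 (TWEAK) and Tnfsf15 (TL1A) differed from Normal by -0.19 to 0.07 in the STAM groups on their main probes. The second probe of Tnfsf12 gave 0.51 (SE 0.22, adjusted p = 0.141) in STAM-NON and 0.70 (SE 0.22, adjusted p = 0.0706) in STAM-INS.

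Ligands and receptors of each axis were set side by side. In the TRAIL axis the ligand Tnfsf10 was detected on all 9 arrays at -0.97 ± 0.15, -0.88 ± 0.12 and -0.96 ± 0.19 (mean ± SD of 3 arrays in STAM-NON, STAM-INS and Normal), while its receptors Tnfrsf10b and Tnfrsf23 were called higher in both STAM groups, Tnfrsf22 was not called in either, and Tnfrsf11b was called in STAM-NON alone. In the RANK axis Tnfsf11 was on no array, Tnfrsf11a was not called, and Tnfrsf11b was higher in STAM-NON. Ligands of the other called receptors were dim. The GITR ligand Tnfsf18 and the CD40 ligand Cd40lg were on no array, and the 4-1BB ligand Tnfsf9 read -3.81, -4.41 and -3.06, then -4.21, -2.90 and -5.76, then -5.60, -5.85 and -4.64.

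**Figure D3:**
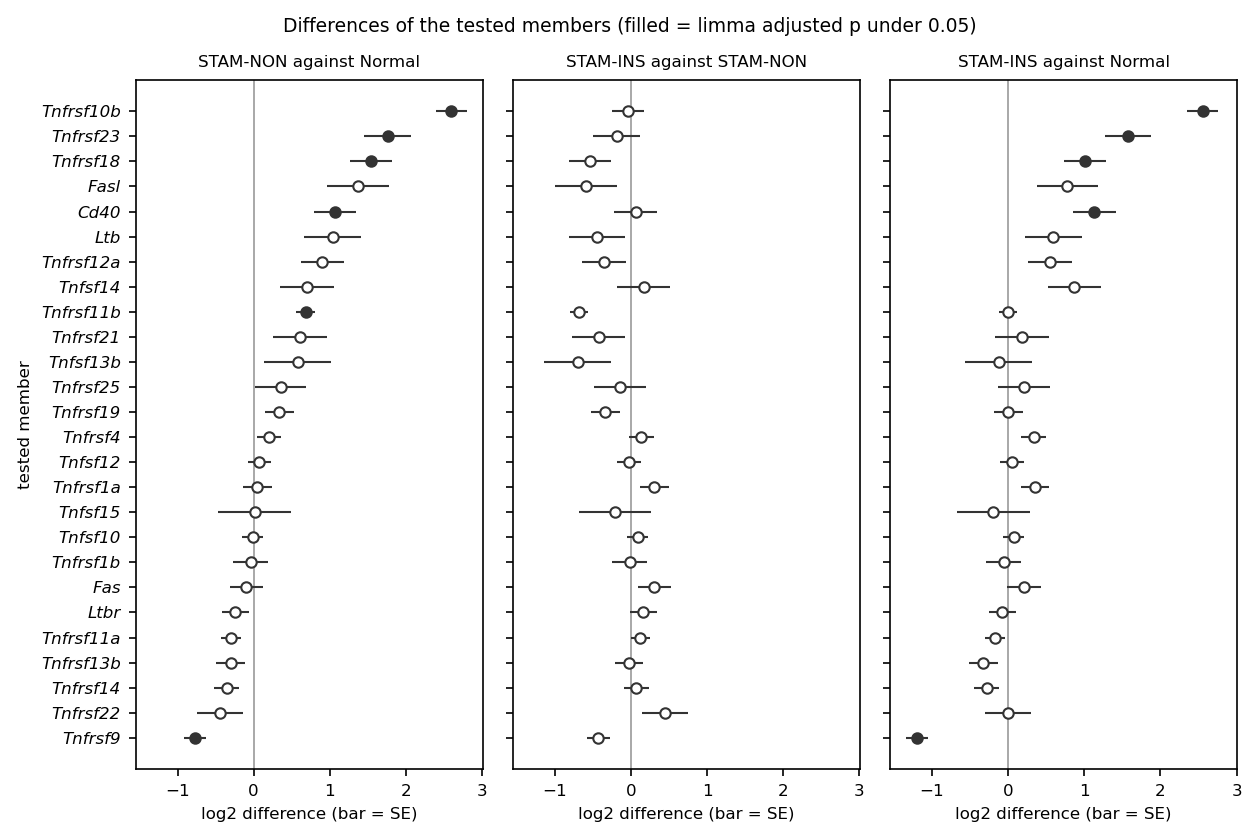
Log2 differences of the 26 tested members (rows, ordered by the first panel) in the 3 comparisons, with the SE from limma as bars. Filled points passed an adjusted p of 0.05; 6, 0 and 5 members did so, and Tnfrsf11b lay at 0.68, -0.68 and 0.0042.

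No member was called for insulin treatment. Between STAM-INS and STAM-NON, 0 of 26 tested members passed limma's adjusted threshold, beside 0.0913% of all probes (24 of 26278). At an unadjusted p under 0.05 there were 2 members by limma, Tnfrsf11b and Tnfrsf9, both lower in STAM-INS, and 1 by the methods' t-test, which also called 0 after adjustment. The median difference was -0.03 over the members and 0.03 over all probes. The largest positive differences were 0.44 (SE 0.30) for Tnfrsf22 and 0.31 for Tnfrsf1a and Fas (SE 0.19 and 0.22), all within overlapping groups, and the largest negative ones beside Tnfrsf11b were -0.70 for Tnfsf13b, -0.59 (SE 0.41) for Fasl and -0.54 for Tnfrsf18. With standard errors of 0.12 to 0.48 for the members, a small effect of insulin could not be detected with 3 arrays per group.

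**Figure D4:**
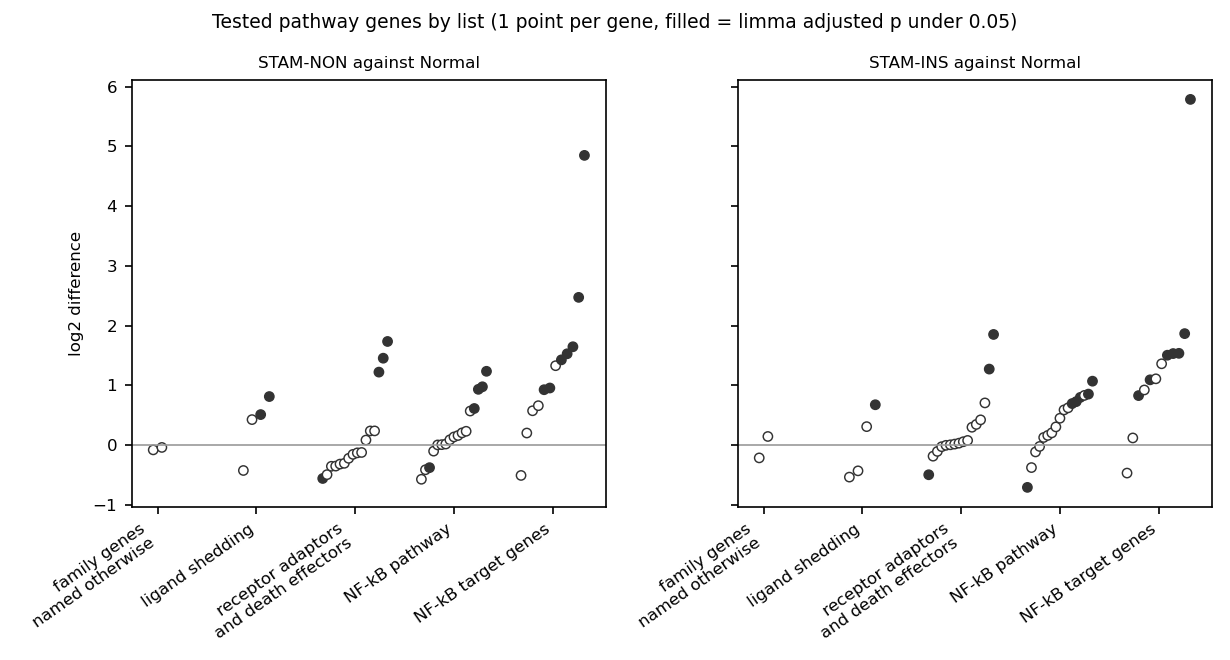
Log2 differences from Normal (y axis) of the 51 tested pathway genes, 1 point per gene, by list, in STAM-NON (left) and STAM-INS (right). Filled points passed a limma adjusted p of 0.05; these were 18 and 17 genes, most of them higher and in the lists of NF-κB genes.

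The wider pathway was described from lists of 61 genes, of which 51 were tested. The lists were chosen with earlier results of these data known, so the shares of all probes given beside them are not a test. In STAM-NON against Normal, 16 were higher and 2 lower, and in STAM-INS against Normal 15 were higher and 2 lower, beside the 16.1% and 13.9% of all tested probes called in either direction, with medians of 0.20 and 0.31 beside -0.13 and -0.09 over all probes. The count of 18 in STAM-NON fell to 5 without STAM-NON replicate 1, 6 without STAM-NON replicate 3, 6, 3 and 3 without Normal replicates 1, 2 and 3, and 9 with a replicate block. The count of 17 in STAM-INS was 6 without STAM-INS replicate 2 and 7, 4 and 7 without Normal replicates 1, 2 and 3. Without the 3 arrays with the most detected spots the counts were 1 and 13. Between STAM-INS and STAM-NON 0 pathway genes were called by limma (8 at an unadjusted p under 0.05, also 8 by the methods' t-test), and without STAM-NON replicate 2 there was 1.

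Of 16 receptor adaptors and death effectors, 3 were higher and 1 lower in STAM-NON, beside 6.3% and 9.76% of all probes. Mlkl, the membrane-permeabilising protein of necroptosis, read 1.59, 1.35 and 1.32 in STAM-NON, 1.32, 1.92 and 1.37 in STAM-INS, and -0.66, 0.06 and -0.35 in Normal. It was 3.33-fold (adjusted p = 0.0063) and 3.61-fold (adjusted p = 0.00338) higher in the STAM groups. Ripk3, the kinase that activates MLKL, rose by 1.45 (SE 0.30, adjusted p = 0.0201) in STAM-NON and 1.27 (SE 0.30, adjusted p = 0.0291) in STAM-INS. Traf1, an adaptor that NF-κB induces, was 1.22 higher in STAM-NON (SE 0.34, adjusted p = 0.0466), and its difference was 0.71 in STAM-INS (SE 0.34, adjusted p = 0.193). Genes of the apoptotic arm were named after their values were seen. Bid, which links death receptors to mitochondria, fell by 0.56 on the log2 scale in STAM-NON (adjusted p = 0.0216) and by 0.50 in STAM-INS (adjusted p = 0.0299), and Casp8, Fadd, Tradd and Cflar had differences from Normal of -0.49 to 0.06, none of them called. Leaving out 1 array ended the calls of Ripk3 and Traf1 in some settings. With the slide row as a block, whose effect was estimated through STAM-INS alone, Traf1 was -0.035 in STAM-NON (adjusted p = 0.973).

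In the NF-κB pathway itself, 4 of 17 tested genes were higher and 1 lower in STAM-NON, beside 6.3% and 9.76% of all probes. In STAM-INS 5 were higher and 1 lower, beside 5.16% and 8.72%. The genes called lower were named after their values were seen. They were Ikbkb in STAM-NON (-0.38, limma adjusted p = 0.0469) and Nfkbia in STAM-INS (-0.71, limma adjusted p = 0.0168). In the other STAM group Ikbkb differed from Normal by -0.11 (limma adjusted p = 0.481) and Nfkbia by -0.41 (limma adjusted p = 0.074). Tnfaip3 (A20), an inhibitor that NF-κB induces, was 1.24 higher in STAM-NON (SE 0.26, adjusted p = 0.022), and its difference was 0.83 in STAM-INS (SE 0.26, adjusted p = 0.0666). Its partner Tnip1 rose by 0.98 and 0.80 (adjusted p = 0.0178 and 0.0314), and Relb, of the non-canonical arm, by 0.93 and 1.07 (adjusted p = 0.031 and 0.0215). Of 12 tested NF-κB target genes, 7 were higher in each STAM group, beside 6.3% and 5.16% of all probes called higher. Because the list was chosen with earlier results known, this does not test whether NF-κB targets rose more than other genes. Lcn2, the secreted lipocalin 2, read 5.63, 3.90 and 6.47 in STAM-NON, 5.42, 8.31 and 5.07 in STAM-INS, and 0.29, 1.06 and 0.09 in Normal, and was 28.9-fold (adjusted p = 0.0163) and 55.3-fold (adjusted p = 0.00773) higher. The chemokine Ccl5 was 5.55-fold higher in STAM-NON (adjusted p = 0.011) and 2.9-fold in STAM-INS (adjusted p = 0.0364), and Ccl2, which attracts monocytes, was 3.13-fold (adjusted p = 0.0381) and 3.65-fold higher (adjusted p = 0.0281). Among the regulators of ligand shedding, Rhbdf2, a partner of the sheddase ADAM17, rose by 0.51 (adjusted p = 0.0472) and 0.68 (adjusted p = 0.0223), Rhbdf1 by 0.81 in STAM-NON (adjusted p = 0.0256), and Adam17 itself differed by -0.43 in both groups (adjusted p = 0.294 and 0.308). Of the 6 family genes with other names, Eda and Ngfr were tested and neither was called. For Bid, Ikbkb and Nfkbia the settings that left out 1 array are not given here. Of the other calls named in these lists, only those of Mlkl, of Ccl5 in STAM-NON and of Lcn2 in STAM-INS held in every such setting. Macrophage markers were higher in the same groups, and their part in these differences was not tested.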

How the data were processed

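Liver RNA of 9 mice was hybridised to single-colour Agilent arrays, designed on mm9, and the authors deposited 1 scanner table per array. Its values are the processed signal intensity that Agilent Feature Extraction 11.5.1.1 gave, named in the submitters' processing notes, and hold no normalization between arrays. Each array held 59305 noncontrol spots, of which 161 to 217 were flagged as outliers and left out, and 0 were saturated. Spots of 1 probe were averaged after log2 transformation and centring on the 75th percentile of the array.

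Symbols came from the RefSeq table (GRCm38.p6, used for names and promoters), which named 27656 of 55681 probes. Groups were taken from the labels, with 3 arrays each. The fit used limma 3.58.1 in R 4.3.3 on all 3 groups (6 residual degrees of freedom), tables used Python 3.11.15 with pandas 2.3.3, and p-values were two-sided with Benjamini-Hochberg adjustment over 26278 probes. They measure the spread between 3 mice per group, whose number limits the precision. The procedure was tested on simulated data.

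A gene with several probes was represented by its brightest tested probe. Named with every array were the members called in any comparison, the 5 largest differences in each direction in STAM-NON against Normal and in STAM-INS against STAM-NON, and Tnf, Tnfrsf1a, Tnfrsf1b, Fas and Fasl. Up to 3 called genes were named from each pathway list, with exceptions given in the text. Members and lists were chosen with earlier results of these data known. Where a probe was well above background on 0 of the 3 arrays of a group, the fold is a lower bound, taken against the higher of the probe's own signal and the lowest signal among probes well above background on each array.

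Alternatives were other centrings, quantile normalization, normexp background correction (offset 50, on median signal, since the tables give no mean signal), other filters, the methods' t-test (an unpaired t-test named for the study in general), blocks for slide row and replicate number, and leaving out arrays.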

Additional observations from a re-analysis of the deposited data

Results flagged for a closer look

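ERCC control spots, which no sample of the comparisons uses, were well above background on 8.91% of spots in STAM-NON replicate 1, 15.5% in STAM-NON replicate 3 and 18.1% in STAM-INS replicate 1, above the highest value of 6.6% on a Normal array. These were also the 3 arrays with the most detected spots of all kinds.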

How the results depend on the processing

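Between STAM-NON and Normal, 6 members were called, against 1 with no filter on dim probes, 3 with only probes detected on all 9 arrays, 0 with the methods' t-test (7 at an unadjusted p under 0.05), 0 with the slide row as a block and 1 without the 3 arrays with the most detected spots, a setting chosen after seeing the data. Over all tested probes the t-test called 30 after adjustment in that comparison, in place of 4220 by limma. Leaving out 1 array gave 4 to 8 members. Between STAM-INS and Normal, 5 became 3 with quantile normalization, 3 with normexp, 2 with no filter, 2 with probes detected on all 9 arrays, 2 with the t-test, 3 with the row block and 3 without the 3 arrays, and leaving out 1 array gave 2 to 4. Between STAM-INS and STAM-NON the count of members was 0 in every setting run.

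For pathway genes, 18 in STAM-NON became 11 with median centring, 1 with no filter, 0 with the t-test, 0 with the row block, 9 with the replicate block and 1 without the 3 arrays, with 3 to 20 on leaving out 1 array. In STAM-INS, 17 became 10 with median centring, 3 with no filter and 5 with the t-test, with 4 to 19 on leaving out 1 array. Between STAM-INS and STAM-NON, leaving out 1 array gave 0 to 1. Traf1 turned from 1.22 to -0.035 with the row block in STAM-NON. The causes were not tested.

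Arrays with the same replicate number correlated at -0.29 to 0.15 in their deviations, so they shared only a number, and the replicate block gave 6 and 4 members in the comparisons with Normal. STAM-NON arrays all lay in row 1 and Normal arrays in row 2, so their row effect was estimated through STAM-INS alone. A slide block could not be fitted and was not run. Over all probes, the 1655 higher and 2565 lower in STAM-NON against Normal became 2077 and 1064 with the percentile over probes detected on all arrays, 2733 and 453 with E1A centring, 1537 and 1425 with quantile normalization and 1313 and 3387 with normexp. In STAM-INS against Normal, 1355 and 2292 became 1679 and 1298 with that percentile and 1501 and 710 with E1A centring. The median over all probes in STAM-NON moved from -0.13 to 0.18 with E1A and -0.29 with median centring. Signal near background limits dim members: under normexp, Tnfrsf18 moved from 1.54 to 0.31 and Cd40 from 1.07 to 0.23 in STAM-NON.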
